A study of Populus qamdoensis and Populus schneideri with 18 samples.

Results

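The comparison set leaves of *Populus qamdoensis* grown under blue film (BF) against leaves of the same species grown under translucent colorless film (WF), labelled white. Its members were all libraries whose labels give this species with blue or white, which are 3 BF and 3 WF libraries, 6 of the 18 in the series. Every gene of the deposited table was compared. The other libraries are 3 of *P. qamdoensis* under green film (GF), which entered the fit for the spread between replicates, and 9 of *P. schneideri* under the same 3 colors. The plants of both groups were cuttings of trees from a natural forest, kept by cutting propagation, potted, moved to a greenhouse and covered for several weeks with film of the same thickness, and total RNA came from leaves of 3 plants per film. For growth and leaf structure the study describes sampling by asexual line within a film. Which lines the plants used for RNA came from is not stated. For *P. schneideri* the film is read from the color its labels give. The comparison asks which genes are expressed at another level in leaves under blue film.

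Blue light is read in plants by cryptochromes and phototropins, and red and far-red light by phytochromes. Active photoreceptors hold back the ubiquitin ligase COP1 and the growth-promoting PIF factors, so that the bZIP factor HY5 builds up and switches on genes of pigment and photosynthesis. Leaves turn the carbon they fix into sucrose for export and into starch for the night, and both pools are known to follow the light a leaf receives.

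Expression is given as FPKM, fragments divided by gene length and by the mapped total of a library, for 39194 genes. The number of fragments behind a value is unknown, so the spread between libraries is the only error given. Column sums ran from 541755 to 605718 FPKM over the 6 libraries, and 27858 to 29413 genes were above 0. The 24147 genes that averaged 0.5 FPKM or more over the 9 libraries of *P. qamdoensis* were fitted with limma on log2(FPKM + 1). Log2 fold changes below are BF minus WF on that scale, ± SE, and understate the change of low genes. Adjusted p-values are limma's with Benjamini-Hochberg adjustment over all genes tested. In whole leaves, fewer cells of a type and less RNA per cell cannot be told apart, and a p-value measures only the spread between these plants.

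BF replicate 1 (BF1) stood apart from the other libraries of its species. Its Pearson r with the other *P. qamdoensis* libraries, across genes, ran from 0.850 to 0.877, and its r with the 9 *P. schneideri* libraries from 0.844 to 0.873. The other 8 *P. qamdoensis* libraries had an r of 0.890 to 0.953 with *P. schneideri*, so BF1 was less like either species than any other *P. qamdoensis* library was like *P. schneideri*. In BF1, 84 genes were under 0.1 FPKM that had at least 5 FPKM in each of the other 8 libraries, and 72 of these were listed at 0. No other *P. qamdoensis* library held a single such gene, and among the *P. schneideri* libraries 1 held 1. In the other direction, 36 genes had at least 5 FPKM in BF1 and under 0.1 in the other 8, against 0 or 1 for every other library. These limits were chosen after the values of BF1 had been seen.

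**Figure D1:**
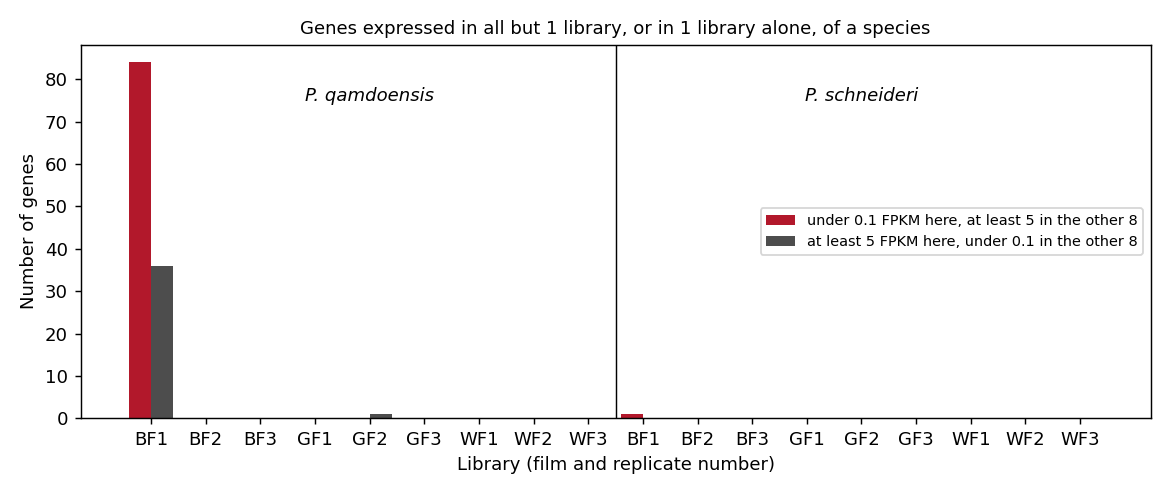
For each library (horizontal axis), the bars count genes under 0.1 FPKM that have at least 5 FPKM in the other 8 libraries of the species (red), and genes at or above 5 FPKM that are under 0.1 in the other 8 (grey). BF1 of *P. qamdoensis* has 84 and 36 such genes and the other 17 libraries have 0 or 1.

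The 84 genes missing from BF1 were not weakly expressed elsewhere. Their median level over the other 8 libraries ran from 5.84 to 95.1 FPKM, with a middle value of 12.7, and 51 of them had at least 5 FPKM in every BF and WF library of *P. schneideri*. Pyun02G021360, singled out after its values were seen as the highest of them, was at 0 in BF1, 47.7 and 67.4 FPKM in BF2 and BF3, and 79.8, 114 and 94.98 FPKM in WF1 to WF3. Among genes that separated the other libraries by species, BF1 followed neither side throughout. Of 14 genes with at least 5 FPKM in the other 8 *P. qamdoensis* and under 0.1 in all *P. schneideri* libraries, 6 were at or above 5 FPKM in BF1 and 6 were under 0.1. Of 9 genes with the opposite pattern, 1 was at or above 5 FPKM in BF1 and 5 were under 0.1. Why BF1 differs was not tested. Counts of *P. qamdoensis* genes below include BF1 unless stated, and many are also given without it. Of 62 genes named or plotted here with an unadjusted p under 0.05, 61 were tested without BF1, all 61 kept their direction and 52 kept an unadjusted p under 0.05. The others were sucrose synthases 1 and 2, a pullulanase, HY5, histidine kinase 3a, RGL1, STAY-GREEN 1 (Pyun01G010920), TIC 55, Pyun11G004480 and Pyun15G002550. All are described below, and sucrose synthase 1 was too low to be tested.

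By the distance of BF1 from the mean of BF2 and BF3, the genes farthest apart included some far higher and some far lower in BF1. Pyun01G029930 was at 302 FPKM in BF1, 0.26 and 2.69 in BF2 and BF3, and 0 in every WF library. Pyun15G002550 was at 197 FPKM in BF1, 0 in BF2, 9.59 in BF3 and at most 0.146 in WF. Pyun18G008200 and Pyun18G008460 reached 77.3 and 64.6 FPKM in BF1 and stayed at or under 0.325 FPKM in the other 5 libraries. On the opposite side, Pyun03G008080 was at 0.40 FPKM in BF1 against 593 and 348 FPKM in BF2 and BF3 and 373 to 420 FPKM in WF. Pyun13G010440 and Pyun19G009420 were at 0 in BF1, against 461 and 243 FPKM and 266 and 175 FPKM in BF2 and BF3. WF held 3.99 to 114 FPKM of Pyun13G010440 and 75.4 to 128 FPKM of Pyun19G009420. The files and lists used here give no function for these 7 genes.

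Photosynthesis was described with pathway lists of the study. The photosynthesis list has 6 genes, chosen by the study for GF against WF. The antenna list has 3 genes, chosen for BF against GF, of light-harvesting proteins that pass energy to the reaction centers. No library of another tissue was compared, so these genes could not check leaf identity. Both lists come from genes called on these libraries, so differences between films in them are not independent evidence. The 3 antenna genes were expressed in every library. They summed to 925, 884 and 440 FPKM in BF1 to BF3 and to 395, 284 and 369 FPKM in WF1 to WF3, so every BF library was above every WF library. *P. schneideri* had sums of 660, 473 and 590 FPKM under BF and 338, 411 and 455 FPKM under WF, again without overlap. The 6 photosynthesis genes summed to 77.5, 54.1 and 34.6 FPKM in BF1 to BF3 and to 27.9, 236 and 262 FPKM in WF1 to WF3. WF1 was below all 3 BF libraries and WF2 and WF3 far above, so the groups overlapped. In *P. schneideri* the same 6 genes summed to 21.4, 40.9 and 39.6 FPKM under BF and to 179, 148 and 150 FPKM under WF.

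Across all genes, 1 gene passed both a 1.5-fold change and an adjusted p of 0.01 (limma, Benjamini-Hochberg) and is counted as called, which is 0.00414% of the 24147 tested, and this was also the only gene past an adjusted p of 0.05 with that fold. At an unadjusted p under 0.05, there were 4102 genes (17.0%), with 2010 above WF (8.32%) and 2092 below (8.66%). The 3 BF libraries did not overlap the 3 WF libraries for 4664 genes (19.3%), 2241 higher in BF (9.28%) and 2423 lower (10%). Without BF1, BF2 and BF3 lay outside the WF range for 3513 genes above it (14.7%) and 3169 below (13.2%), where 2 libraries must clear the range in place of 3. In that fit 3611 of 23978 genes (15.1%) had an unadjusted p under 0.05, 2031 higher (8.47%) and 1580 lower (6.59%), 1 gene was called, and 12 genes (0.05%) passed a fold change of 1.5 at an adjusted p under 0.05. The count of calls rested on single libraries. Without BF2, the number of called genes was 180 (0.745%), with 171 above WF, and without BF3, or without any 1 of the 3 GF or 3 WF libraries, it was 0.

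The BF libraries differed from WF by different amounts. The SD over genes of the difference from the WF mean was 0.94 for BF1, 0.45 for BF2 and 0.54 for BF3 on the log2 scale. BF1 had 1843 genes at least 1 log2 unit above the WF mean and above all WF libraries, BF2 had 366 and BF3 had 1112. Below WF by the same rule were 2682 genes in BF1, 341 in BF2 and 134 in BF3. Only 79 genes were above in all 3 and 13 below in all 3, and 511 were above in BF1 and BF3 against 140 in BF1 and BF2 and 125 in BF2 and BF3. Below WF, the shared counts were 48 in BF1 and BF3, 174 in BF1 and BF2 and 29 in BF2 and BF3. By GC content of the reads, BF1, BF2, WF2 and WF3 lay above 0.45 and BF3 and WF1 below it. Within the class above 0.45, which leaves 4 libraries, limma called 0 genes and 1914 had an unadjusted p under 0.05.

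The called gene, Pyun06G019200, was lower under BF. It was at 0.059, 0.475 and 0.423 FPKM in BF1 to BF3 and at 5.76, 7.77 and 6.40 FPKM in WF1 to WF3, a log2 fold change of −2.54 ± 0.19 (limma, Benjamini-Hochberg adjusted p = 0.00792). Without BF1 it was −2.39 ± 0.16 (limma, adjusted p = 0.00745). The files and lists used here give no function for it. The gene was near 0 in *P. schneideri*, at most 0.084 FPKM under BF or WF.

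Among the 12 genes that passed without BF1, 8 also had all 3 BF libraries outside the WF range (9.28% of all genes above it and 10% below). The 12 genes were chosen on BF2 and BF3, so only the position of BF1 adds to this count. Pyun12G002150 was at 81.8, 12.9 and 18.9 FPKM in BF1 to BF3 and at 2.31, 2.28 and 1.23 FPKM in WF1 to WF3. Its log2 fold change was 3.30 ± 0.56 with BF1 (limma, adjusted p = 0.142) and 2.52 ± 0.25 without it (limma, adjusted p = 0.0192). Pyun19G011250 was at 6.37, 14.8 and 20.5 FPKM under BF and at 1.27, 0.319 and 1.72 FPKM under WF. The transcript listed as new gene Populus_yunnanensis_newGene_2930 was at 7.08, 9.96 and 14.4 FPKM under BF and at 1.22, 0.558 and 1.51 FPKM under WF. These 3 belong to the study's amino sugar and nucleotide sugar list, the pathway of chitin turnover and of the sugar nucleotides that feed cell wall polymers. BF1 was the highest library for Pyun12G002150 and the lowest BF library for both others. No BF library overlapped WF, which the choice of these 8 genes required.

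Pyun04G012190 was at 13.4, 12.4 and 13.02 FPKM in BF1 to BF3 and at 6.20, 5.82 and 6.25 FPKM in WF1 to WF3. Its log2 fold change was 0.98 ± 0.11 (limma, adjusted p = 0.0629), and 0.95 ± 0.11 without BF1 (limma, adjusted p = 0.0406). Pyun05G003570 was lower, at 27.9, 15.6 and 13.3 FPKM under BF against 32.2, 31.6 and 33.4 FPKM under WF. Pyun09G010430, from the nitrogen metabolism list, was at 0.080, 2.16 and 2.37 FPKM under BF against 7.16, 8.59 and 8.88 FPKM under WF. Here BF2 and BF3 lay together and BF1 lay closer to WF for Pyun05G003570 and farther from it for Pyun09G010430. Populus_yunnanensis_newGene_2404 was at 6.04, 23.0 and 22.8 FPKM under BF and at 2.77, 0.479 and 2.72 FPKM under WF. For the remaining 4 genes BF1 fell into or past the WF range, so that their call exists only without it. Pyun04G009420, for example, was at 139 and 159 FPKM in BF2 and BF3, 14.4 to 24.7 FPKM in WF, and 0 in BF1.

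**Figure D2:**
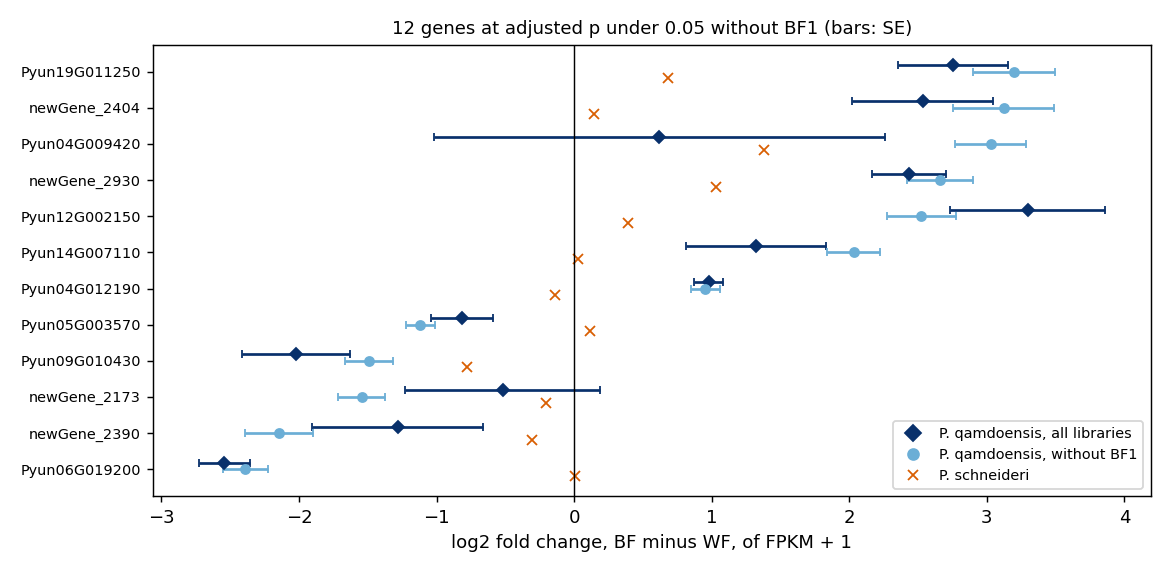
Log2 fold change of FPKM + 1, BF minus WF (horizontal axis), with SE bars, for the 12 genes that passed limma at an adjusted p under 0.05 and a fold change of 1.5 without BF1, from all libraries (diamonds) and without BF1 (circles), beside the difference of means in *P. schneideri* (crosses). Pyun06G019200 and Pyun04G012190 keep nearly the same value with and without BF1, and Pyun04G009420 goes from 0.62 to 3.03.

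The study's list of starch and sucrose genes was mostly higher under BF. Of its 46 genes 44 were tested, 33 were higher and 11 lower, and 19 higher and 6 lower had an unadjusted p under 0.05, where all genes gave 8.32% and 8.66%. The libraries did not overlap for 15 higher and 5 lower genes (9.28% and 10% of all genes), and the median log2 fold change was 0.85, against −0.05 over all genes tested. Without BF1, 16 higher and 4 lower genes had an unadjusted p under 0.05 and the median was 0.57. The study chose this list, like the other pathway lists below, from genes it had called on these libraries, so its direction is not independent evidence. Over all 44 genes the median difference from the WF mean was 1.04 in BF1, 0.03 in BF2 and 1.10 in BF3, while the endo-1,3-beta-glucosidases had a BF2 median of 1.17 and the beta-glucosidases one of 1.14.

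Glucan endo-1,3-beta-glucosidases, which cut the beta-1,3-glucan callose of cell walls and plasmodesmata and the walls of fungi, led the list. All 8 were higher, 5 of them with an unadjusted p under 0.05 and with no overlap between films, where 8.32% and 9.28% of all genes did so, and the median log2 fold change was 1.91. Without BF1, 7 were higher, 5 with an unadjusted p under 0.05, the median was 2.08, and Pyun15G000920 went from 0.38 to −0.09. Pyun16G005170, annotated as the basic isoform, was at 80.2, 11.6 and 153 FPKM in BF1 to BF3 and at 1.29, 0.81 and 0.746 FPKM in WF1 to WF3, a log2 fold change of 4.80 ± 0.75 (limma, adjusted p = 0.136). Its neighbor by identifier, Pyun16G005160, was at 46.0, 1.88 and 38.1 FPKM under BF and at 0.209, 0.210 and 0.149 FPKM under WF. BF2 was the lowest BF library for both genes and still above every WF library.

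Pyun01G024520 was at 39.6, 35.0 and 243 FPKM under BF and at 12.8, 12.03 and 8.04 FPKM under WF. Pyun01G024530 was at 19.4, 2.91 and 51.8 FPKM under BF and at 1.65, 1.89 and 1.48 FPKM under WF. Pyun06G004350 was at 0.996, 3.01 and 7.31 FPKM under BF and at 0.762, 0.819 and 0.634 FPKM under WF. BF3 was the highest library for all 3 genes, and without BF1 their log2 fold changes were 3.00 ± 0.68, 2.43 ± 0.86 and 1.73 ± 0.31 (limma, adjusted p = 0.149, 0.256 and 0.119). Genes of 1 family such as these can share reads, and how the authors counted such reads is not given, so the split between copies is uncertain.

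Of the genes in the same list that are annotated only as unknown, 3 followed the glucanases. Pyun01G024500 was at 127, 13.1 and 394 FPKM in BF1 to BF3 against 6.30, 7.91 and 3.55 FPKM in WF1 to WF3. Pyun10G013510 was at 104, 4.82 and 67.0 FPKM under BF against 1.45, 0.669 and 0.541 FPKM under WF. Pyun10G013760 was at 10.8, 1.11 and 19.0 FPKM under BF against 0.376, 0.376 and 0.433 FPKM under WF. In each of the 3 the BF libraries lay above WF, with BF1 and BF3 far above and BF2 the lowest BF library. Without BF2, limma called 7 genes of the starch and sucrose list, namely these 3, Pyun16G005160, Pyun16G005170, Pyun01G024530 and the glycoside hydrolase Pyun01G021560 described next, with adjusted p-values from 5.5e-05 for Pyun16G005160 to 0.00913 for Pyun01G021560. With all libraries and without BF1 it called 0 of the list, where 25 and 20 had an unadjusted p under 0.05.

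Beta-glucosidases and glycoside hydrolases, which release glucose from cell wall fragments and from stored glycosides, showed a tighter pattern. Of 8 genes 7 were tested and 6 were higher with an unadjusted p under 0.05, 5 of them without overlap (8.32% and 9.28% of all genes), and the same 6 counted without BF1. The median log2 fold change was 1.51, or 1.69 without BF1. Pyun01G021560 was at 11.1, 9.42 and 16.1 FPKM in BF1 to BF3 and at 4.22, 3.67 and 2.76 FPKM in WF1 to WF3, a log2 fold change of 1.52 ± 0.21 (limma, adjusted p = 0.133) and of 1.56 ± 0.23 without BF1 (limma, adjusted p = 0.0833). Pyun01G021350 was at 8.61, 8.43 and 19.2 FPKM under BF and at 3.87, 3.45 and 2.64 FPKM under WF. BF1 and BF2 agreed closely for both genes and BF3 was the highest.

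Pyun01G021550 was at 8.78, 9.85 and 26.6 FPKM under BF and at 5.56, 5.14 and 3.65 FPKM under WF. Pyun04G009930 was at 7.07, 7.43 and 21.4 FPKM under BF and at 4.06, 3.04 and 2.07 FPKM under WF. Pyun19G002470 was at 31.6, 37.7 and 86.2 FPKM under BF and at 20.8, 15.9 and 9.43 FPKM under WF. BF3 was again the highest in each. Pyun04G009900 overlapped through BF1, with 2.22, 5.30 and 9.65 FPKM under BF and 2.39, 2.04 and 0.533 FPKM under WF. Pyun01G021570, too low to be tested, was at 1.06, 0.61 and 0.46 FPKM under BF and at most 0.25 FPKM under WF. The remaining gene, Pyun01G039570, went the other way without passing, at 0.05, 1.21 and 6.28 FPKM under BF and 2.83, 6.29 and 5.35 FPKM under WF. The 7 genes that were higher under BF had at most 0.18 FPKM in any BF or WF library of *P. schneideri*.

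**Figure D3:**
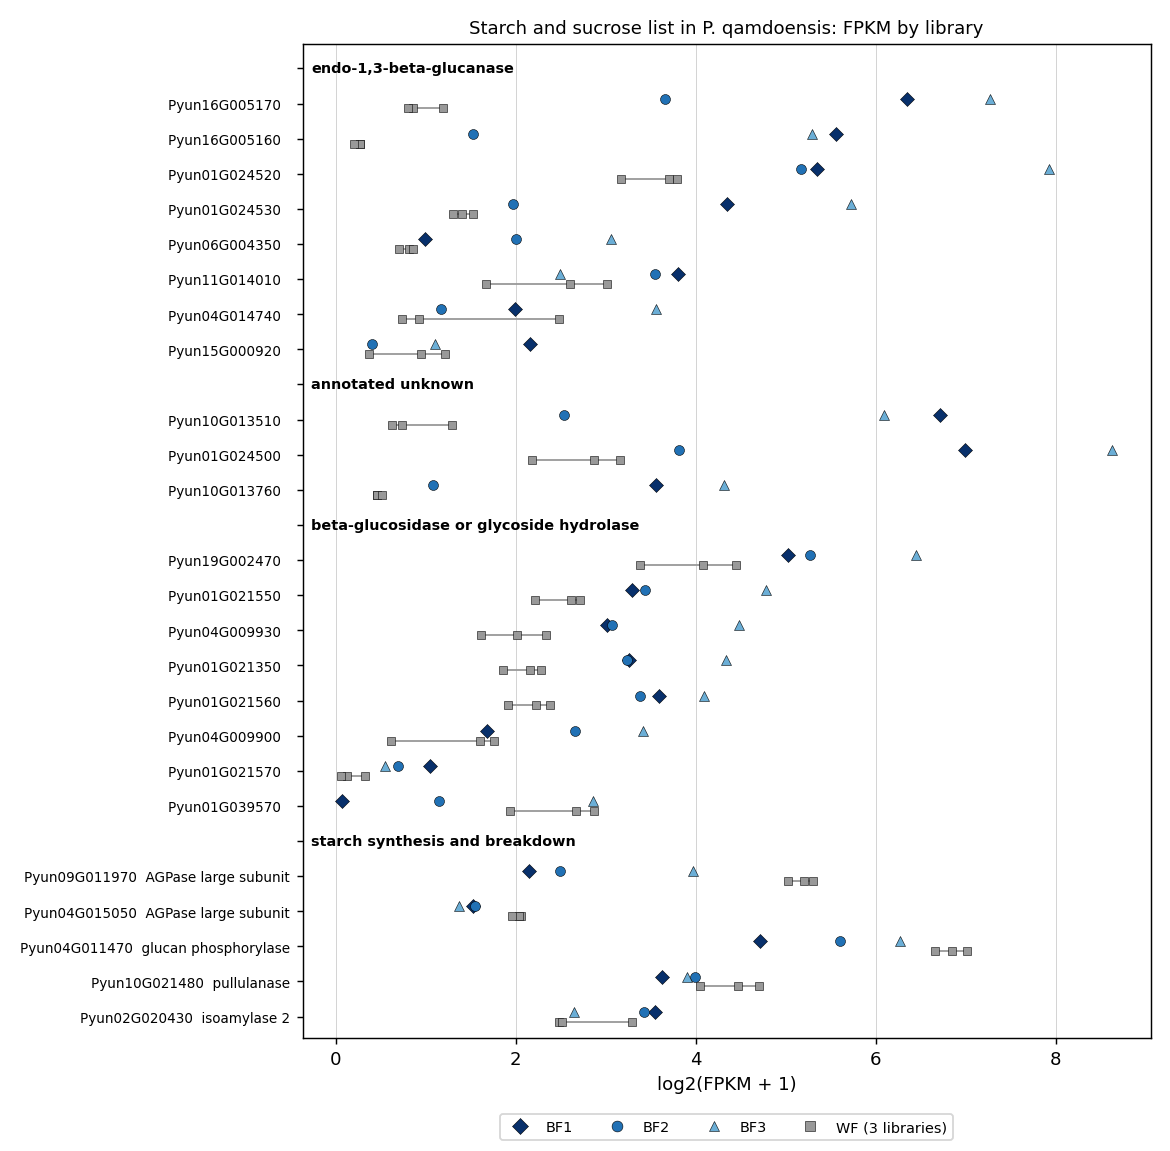
Expression as log2(FPKM + 1) (horizontal axis) of genes of the starch and sucrose list in each BF library (diamond, circle and triangle for BF1, BF2 and BF3) and in the 3 WF libraries (grey squares, joined by their range). BF points lie right of WF for 5 of 8 endo-1,3-beta-glucanases and left of WF for 4 of 5 starch genes.

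Genes of starch itself went the other way. Of 5 tested, 4 were lower with an unadjusted p under 0.05, all 4 without overlap between films (8.66% and 10% of all genes), and the median log2 fold change was −0.57. Without BF1, 3 were lower with an unadjusted p under 0.05 and the median was −0.56. Pyun09G011970, a large subunit of glucose-1-phosphate adenylyltransferase (AGPase), which makes the ADP-glucose that starch is built from, was at 3.45, 4.62 and 14.6 FPKM in BF1 to BF3 and at 38.6, 31.5 and 35.8 FPKM in WF1 to WF3. Its log2 fold change was −2.30 ± 0.43 (limma, adjusted p = 0.144), and −1.95 ± 0.41 without BF1 (limma, adjusted p = 0.135). The second AGPase large subunit, Pyun04G015050, was at 1.88, 1.92 and 1.58 FPKM under BF and at 3.18, 3.098 and 2.88 FPKM under WF. Every BF library was below every WF library for both genes.

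Pyun04G011470, a plastid alpha-1,4 glucan phosphorylase that takes glucose units off glucan chains, was at 25.3, 47.7 and 76.4 FPKM under BF and at 128, 99.97 and 115 FPKM under WF. The log2 fold change was −1.31 ± 0.33 (limma, adjusted p = 0.175) and −0.90 ± 0.21 without BF1 (limma, adjusted p = 0.152). Pyun10G021480, a pullulanase that cuts the branch points of starch, was at 11.3, 14.9 and 13.9 FPKM under BF and at 25.1, 15.5 and 21.1 FPKM under WF. Isoamylase 2 (Pyun02G020430), a partner of the debranching enzyme, overlapped between films at 10.7, 9.71 and 5.28 FPKM against 8.79, 4.57 and 4.73 FPKM. BF1 was the farthest from WF for the phosphorylase and the pullulanase.

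Sucrose synthases and invertases split the sucrose that reaches a cell. Of 5 of these enzymes tested, 4 were higher, 2 of them with an unadjusted p under 0.05 (8.32% of all genes), none without overlap, and without BF1 none had an unadjusted p under 0.05. Sucrose synthase 1 (Pyun18G005620) was at 2.84, 0.255 and 1.93 FPKM under BF and at 0.334, 0.279 and 0.427 FPKM under WF. Sucrose synthase 2 (Pyun06G012700) was at 3.59, 1.497 and 7.504 FPKM under BF and at 1.97, 1.61 and 0.985 FPKM under WF. BF2 was under the WF libraries for sucrose synthase 1 and within their range for sucrose synthase 2. Of 9 resistance proteins and receptor kinases in the list, 2 were lower with an unadjusted p under 0.05 (8.66% of all genes), and 1 without BF1. The lower one without overlap, Pyun19G001160, annotated as TMV resistance protein N, was at 0, 3.52 and 3.34 FPKM under BF and at 8.15, 13.05 and 7.71 FPKM under WF.

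The study's pathway lists for BF against WF that are complete number 18 and hold 119 genes, 116 of them tested. BF1 was above all WF libraries for 100 of the 116 and BF3 for 99, while BF2 was above for 55 and below all WF libraries for 30. Over all genes tested these shares were 32.4% for BF1, 37.0% for BF3 and 28.4% for BF2. BF1 and BF3 above WF with BF2 within or below it was seen in 46 of the 116 genes (39.7%) and in 8.96% of all genes. The median difference from the WF mean over the 116 genes was 1.89 in BF1, 0.14 in BF2 and 1.53 in BF3. Of the 116 genes, 74 were higher and 14 lower with an unadjusted p under 0.05 (8.32% and 8.66% of all genes). Without BF1, of 111 tested, 52 were higher with an unadjusted p under 0.05 (8.47% of all genes).

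**Figure D4:**
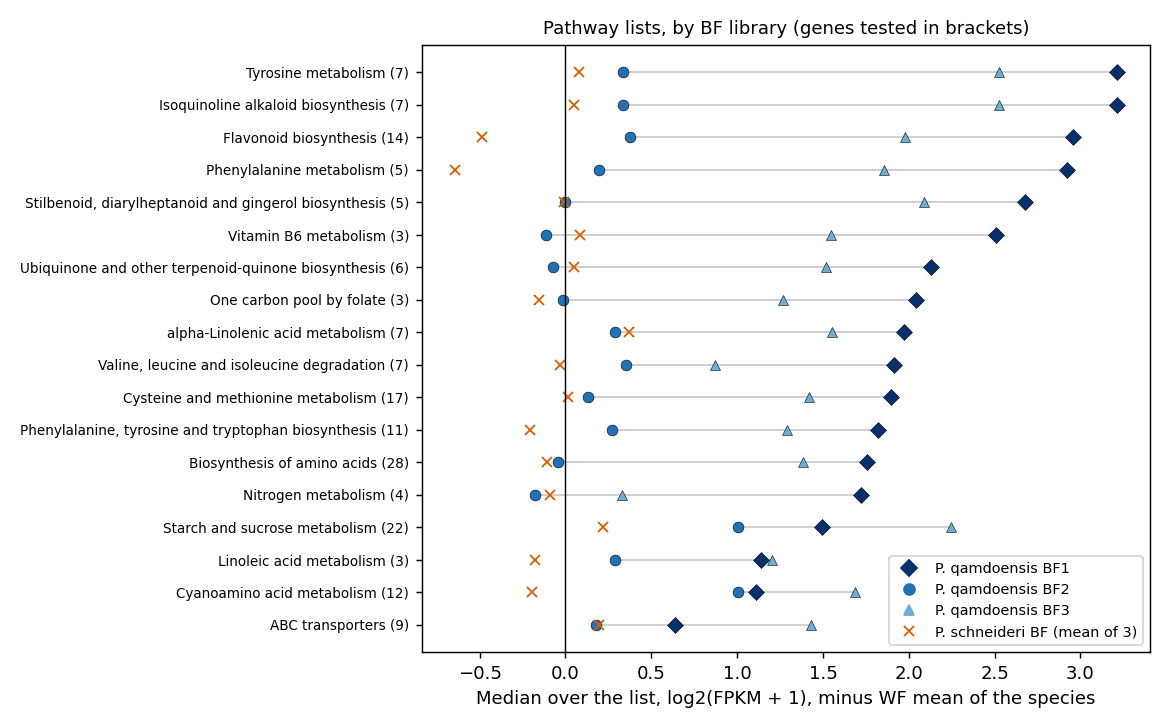
For each of the 18 pathway lists (vertical axis, genes tested in brackets), the median over genes of the difference from the WF mean in log2(FPKM + 1) (horizontal axis) in BF1, BF2 and BF3 of *P. qamdoensis* (blue), and the median fold change in *P. schneideri* (orange crosses). BF2 lies between −0.18 and 0.38 for all lists except starch and sucrose and cyanoamino acid metabolism, where it is at 1.00, and BF1 lies between 0.64 and 3.21.

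Amino acid and aromatic metabolism were higher in BF1 and BF3 and near WF in BF2. In the list for biosynthesis of amino acids, 17 of 28 genes were higher and 1 was lower with an unadjusted p under 0.05. Without BF1, 9 were higher and 1 lower at that p. Over all genes these shares were 8.32% and 8.66%, or 8.47% and 6.59% without BF1. The list medians over BF1, BF2 and BF3 were 1.76, −0.04 and 1.39. Pyun05G014610, from this list and that of phenylalanine, tyrosine and tryptophan biosynthesis, was at 69.2, 4.82 and 22.9 FPKM in BF1 to BF3 and at 4.07, 4.27 and 3.18 FPKM in WF1 to WF3. Pyun09G014570, from the same 2 lists, was at 41.2, 2.66 and 10.2 FPKM under BF and at 1.5, 2.18 and 1.62 FPKM under WF. Pyun05G008700, shared with cysteine and methionine metabolism, was at 91.9, 18.1 and 46.9 FPKM under BF and at 16.3, 14.6 and 15.2 FPKM under WF. In all 3 genes BF2 was above the highest WF library by a small margin and BF1 was the highest. Of the 17 cysteine and methionine genes, which lead to S-adenosylmethionine and ethylene, 12 were higher with an unadjusted p under 0.05 and 7 without BF1.

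Tyrosine metabolism and isoquinoline alkaloid biosynthesis each had 7 genes. In each, 6 were higher and 1 lower with an unadjusted p under 0.05 (8.32% and 8.66% of all genes). Without BF1, 5 were higher and 1 lower in each (8.47% and 6.59% of all genes). The median log2 fold change of each was 2.04, or 1.45 without BF1. Pyun01G037060 was at 138, 0.951 and 38.6 FPKM in BF1 to BF3 and at 0.182, 0.495 and 0.163 FPKM in WF1 to WF3. Pyun11G004480 was at 139, 0.382 and 67.1 FPKM under BF and at 0.317, 1.34 and 0.373 FPKM under WF. Pyun07G009480, shared with biosynthesis of amino acids, was at 20.1, 1.95 and 12.1 FPKM under BF and at 1.35, 1.27 and 1.22 FPKM under WF. BF2 lay inside the WF range for Pyun11G004480 and above it for the other 2 genes.

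Flavonoid biosynthesis, the source of ultraviolet-screening and colored phenolics, had 14 genes, all higher, 10 of them with an unadjusted p under 0.05 and 8 without BF1. Over all genes 8.32% were higher at that p, or 8.47% without BF1. Pyun02G003050 was at 59.1, 6.27 and 30.0 FPKM under BF and at 3.57, 1.95 and 1.98 FPKM under WF. Pyun03G016750 was at 65.8, 3.06 and 18.05 FPKM under BF and at 2.59, 1.31 and 0.919 FPKM under WF. In *P. schneideri* the same 14 genes had a median of −0.48, with 3 higher and 5 lower at an unadjusted p under 0.05. Of genes tested in both species 5.38% and 10.2% were so there. The study's lists for GF against WF held 16 flavonoid genes. Of these, 1 was higher and 5 lower under BF with an unadjusted p under 0.05 (8.32% and 8.66% of all genes). Without BF1, 1 was higher and 4 lower (8.47% and 6.59%). The lists also held 2 genes of flavone and flavonol biosynthesis, both lower without overlap (10% of all genes).

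Jasmonate precursors, made from alpha-linolenic acid, showed 6 of 7 tested genes higher with an unadjusted p under 0.05 and 5 of 7 without BF1. Over all genes 8.32% were higher and 8.66% lower at that p, or 8.47% and 6.59% without BF1. Branched-chain amino acid degradation had 7 genes, 4 higher and 2 lower with an unadjusted p under 0.05 with and without BF1. Its Pyun17G005420 was at 39.3, 8.63 and 31.4 FPKM in BF1 to BF3 and at 6.57, 5.76 and 5.92 FPKM in WF1 to WF3. Pyun05G014650 of the same list was at 3.52, 8.84 and 1.41 FPKM under BF and at 0, 0.057 and 0.051 FPKM under WF, and BF2 was its highest library. Among genes that were lower, Pyun06G002340 of cyanoamino acid metabolism was at 0.871, 2.41 and 6.10 FPKM under BF and at 7.78, 25.3 and 10.3 FPKM under WF. Pyun13G002060 of linoleic acid metabolism was at 1.52, 2.66 and 2.57 FPKM under BF and at 6.48, 4.398 and 6.09 FPKM under WF. Without overlap in either, BF1 was the lowest library for both.

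The amino sugar and nucleotide sugar list was drawn by the study from BF against GF. Of its 26 genes 25 were higher under BF than under WF. Of these, 21 had an unadjusted p under 0.05 (8.32% of all genes) and 14 did not overlap (9.28%). The list medians were 1.89 in BF1, 0.47 in BF2 and 1.305 in BF3. Without BF1, 17 were higher with an unadjusted p under 0.05 (8.47% of all genes). In that fit 4 passed a fold change of 1.5 at an adjusted p under 0.05 by limma (0.05% of all genes). In *P. schneideri* 22 of 24 tested genes were higher under BF, 7 of them with an unadjusted p under 0.05, and the median was 0.52. Of all genes tested in both species, 42.5% were higher there, and 5.38% were higher with an unadjusted p under 0.05.

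Light signaling genes were lower by small amounts. All 6 genes of the study's light signaling list had a negative log2 fold change, 3 with an unadjusted p under 0.05 (8.66% of all genes), and 0 passed the adjusted threshold. Of all 24147 genes 10826 were higher and the median was −0.05, beside −0.36 for the list. Without BF1, again 6 were lower and 3 had an unadjusted p under 0.05, PHYB, PIF4 and COP1 in place of PHYB, PIF4 and HY5. Phytochrome B (PHYB, Pyun10G014030), the main red light receptor of green plants, was at 7.90, 5.21 and 7.49 FPKM in BF1 to BF3 and at 8.73, 9.89 and 8.97 FPKM in WF1 to WF3. Its log2 fold change was −0.39 ± 0.17 (limma, adjusted p = 0.291) and −0.49 ± 0.17 without BF1 (limma, adjusted p = 0.25). PIF4 (Pyun02G023670), a growth-promoting bHLH factor that phytochrome B restrains, was at 14.7, 15.9 and 17.2 FPKM under BF and at 21.2, 23.3 and 18.3 FPKM under WF. For PHYB and PIF4 the films did not overlap.

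HY5 (Pyun10G000570), the bZIP factor that promotes light responses, was at 53.4, 59.6 and 88.2 FPKM under BF and at 90.5, 93.1 and 83.6 FPKM under WF. Its homolog HYH (Pyun13G015450) was at 17.8, 18.6 and 25.7 FPKM under BF and at 28.5, 26.7 and 23.8 FPKM under WF. The blue light receptor cryptochrome 1 (CRY1, Pyun02G008950) was at 55.5, 57.1 and 72.8 FPKM under BF and at 70.4, 80.8 and 66.5 FPKM under WF. BF1 and BF2 lay below WF for these 3 genes and BF3 lay within its range. COP1 (Pyun14G013660), the ligase that marks HY5 for breakdown, was at 17.8, 11.0 and 15.3 FPKM under BF and at 15.7, 18.7 and 17.0 FPKM under WF, with only BF2 and BF3 below. Without BF1 the log2 fold change of HY5 was −0.29 ± 0.17 and that of COP1 −0.37 ± 0.15 (limma, adjusted p = 0.458 and 0.312). The PIF3 genes of the hormone list were at 4.71, 6.85 and 3.81 FPKM under BF against 2.02, 4.70 and 3.00 FPKM under WF (Pyun14G008760), and at 5.19, 9.30 and 6.07 FPKM against 5.14, 7.38 and 5.61 FPKM (Pyun14G009100), overlapping in both.

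The hormone list had as many genes higher as lower. Of 24 genes, 12 were higher and 12 lower, with 5 higher and 10 lower at an unadjusted p under 0.05 (8.32% and 8.66% of all genes), and 5 higher and 8 lower without BF1. The 4 auxin response genes, of the SAUR and GH3 families, were all higher. For 3 of them the unadjusted p was below 0.05 and the films did not overlap (8.32% and 9.28% of all genes). Without BF1, 2 SAUR genes and 1 GH3 gene stayed below that p (8.47% of all genes). SAUR50 (Pyun01G016130), of the small auxin-induced proteins tied to cell expansion, was at 11.3, 4.20 and 4.96 FPKM in BF1 to BF3 and at 1.95, 2.52 and 3.73 FPKM in WF1 to WF3. The related auxin-induced protein 6B (Pyun09G012660) was at 2.10, 2.18 and 2.01 FPKM under BF and at 1.13, 0.701 and 0.671 FPKM under WF, a log2 fold change of 0.76 ± 0.17 (limma, adjusted p = 0.165) and of 0.76 ± 0.19 without BF1 (limma, adjusted p = 0.159). GH3.6 (Pyun14G011700), which joins auxin to amino acids, was at 1.47, 1.72 and 1.51 FPKM under BF and at 0.382, 1.02 and 0.537 FPKM under WF. The 3 BF libraries were above WF for these 3 genes and nearly equal to each other for 6B and GH3.6. GH3.1 (Pyun09G009710) overlapped, at 3.16, 0.868 and 5.78 FPKM under BF and 1.26, 1.13 and 1.31 FPKM under WF, with BF2 below every WF library.

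Both cytokinin receptor kinases were lower, and of 4 genes listed as gibberellin receptors or related carboxylesterases 2 were lower and 2 higher, with only GID1C at an unadjusted p under 0.05. Histidine kinase 3b (Pyun03G015950), a cytokinin receptor kinase, was at 15.7, 17.0 and 27.3 FPKM under BF and at 33.0, 35.4 and 32.7 FPKM under WF, a log2 fold change of −0.76 ± 0.19 (limma, adjusted p = 0.171) and of −0.62 ± 0.17 without BF1 (limma, adjusted p = 0.194). Its relative, kinase 3a (Pyun01G005630), was at 14.7, 12.3 and 22.2 FPKM under BF and at 21.9, 24.3 and 21.2 FPKM under WF. The gibberellin receptor GID1C (Pyun13G002950) was at 23.6, 26.6 and 44.5 FPKM under BF and at 46.5, 50.4 and 55.9 FPKM under WF. BF3 was the BF library nearest to WF in all 3, and it overlapped WF only for kinase 3a, whose unadjusted p missed 0.05 without BF1. GID1b (Pyun02G020140) overlapped at 5.97, 1.87 and 6.60 FPKM under BF and 5.07, 15.9 and 6.003 FPKM under WF. The genes annotated as carboxylesterase 18 (Pyun19G002820 and Pyun19G002920) had log2 fold changes of 1.00 and 1.19, and of 0.38 and 0.40 without BF1. The DELLA protein RGL1 (Pyun10G013610), which gibberellin removes, was low in all, at 0, 0.317 and 0.234 FPKM under BF and at 0.740, 0.505 and 0.848 FPKM under WF.

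The hormone list holds 5 MYB-type regulators, 2 PIF3 genes and RGL1, SCL27 and NLP9. Of these 10 genes 6 were lower, all with an unadjusted p under 0.05, and 4 were higher, 1 of them with an unadjusted p under 0.05. Over all genes 8.66% were lower and 8.32% higher at that p. Without BF1, 5 were lower with an unadjusted p under 0.05 (6.59% of all genes). The study chose this list from genes it had called on these libraries. NLP9 (Pyun07G013890), of the nitrate-responsive NIN-like family, was at 1.81, 2.78 and 4.48 FPKM under BF and at 5.86, 8.24 and 5.97 FPKM under WF, a log2 fold change of −0.97 ± 0.24 (limma, adjusted p = 0.175) and of −0.74 ± 0.20 without BF1 (limma, adjusted p = 0.187). Scarecrow-like 27 (SCL27, Pyun03G010210), whose Arabidopsis relatives regulate chlorophyll synthesis, was at 3.14, 5.66 and 5.84 FPKM under BF and at 7.66, 6.94 and 7.09 FPKM under WF. BOA (Pyun09G004560), in Arabidopsis a regulator of the circadian clock, was at 6.57, 12.6 and 14.4 FPKM under BF and at 21.5, 20.0 and 18.6 FPKM under WF. BF1 was the lowest library for these 3, and BF2 and BF3 were below WF as well.

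The MYB-type factors annotated as PHL5 were lower in all 3 BF libraries. Pyun06G017330 was at 12.95, 7.86 and 9.80 FPKM under BF and at 13.1, 18.7 and 16.1 FPKM under WF. Pyun16G004240 was at 5.75, 4.06 and 7.31 FPKM under BF and at 8.06, 12.97 and 10.7 FPKM under WF. EFM (Pyun09G010930), in Arabidopsis a MYB-type repressor of flowering, went the other way at 22.3, 18.2 and 12.1 FPKM under BF and 12.9, 7.26 and 8.67 FPKM under WF, where BF3 overlapped WF1. GLK1-like (Pyun07G014410), of a family that promotes chloroplast genes, overlapped at 20.01, 17.0 and 9.75 FPKM under BF and 13.6, 16.1 and 13.6 FPKM under WF, with a log2 fold change of 0.05, or −0.15 without BF1. Without BF1, PHL5 (Pyun06G017330) was at −0.78 ± 0.16 and EFM at 0.61 ± 0.26 (limma, adjusted p = 0.13 and 0.317).

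**Figure D5:**
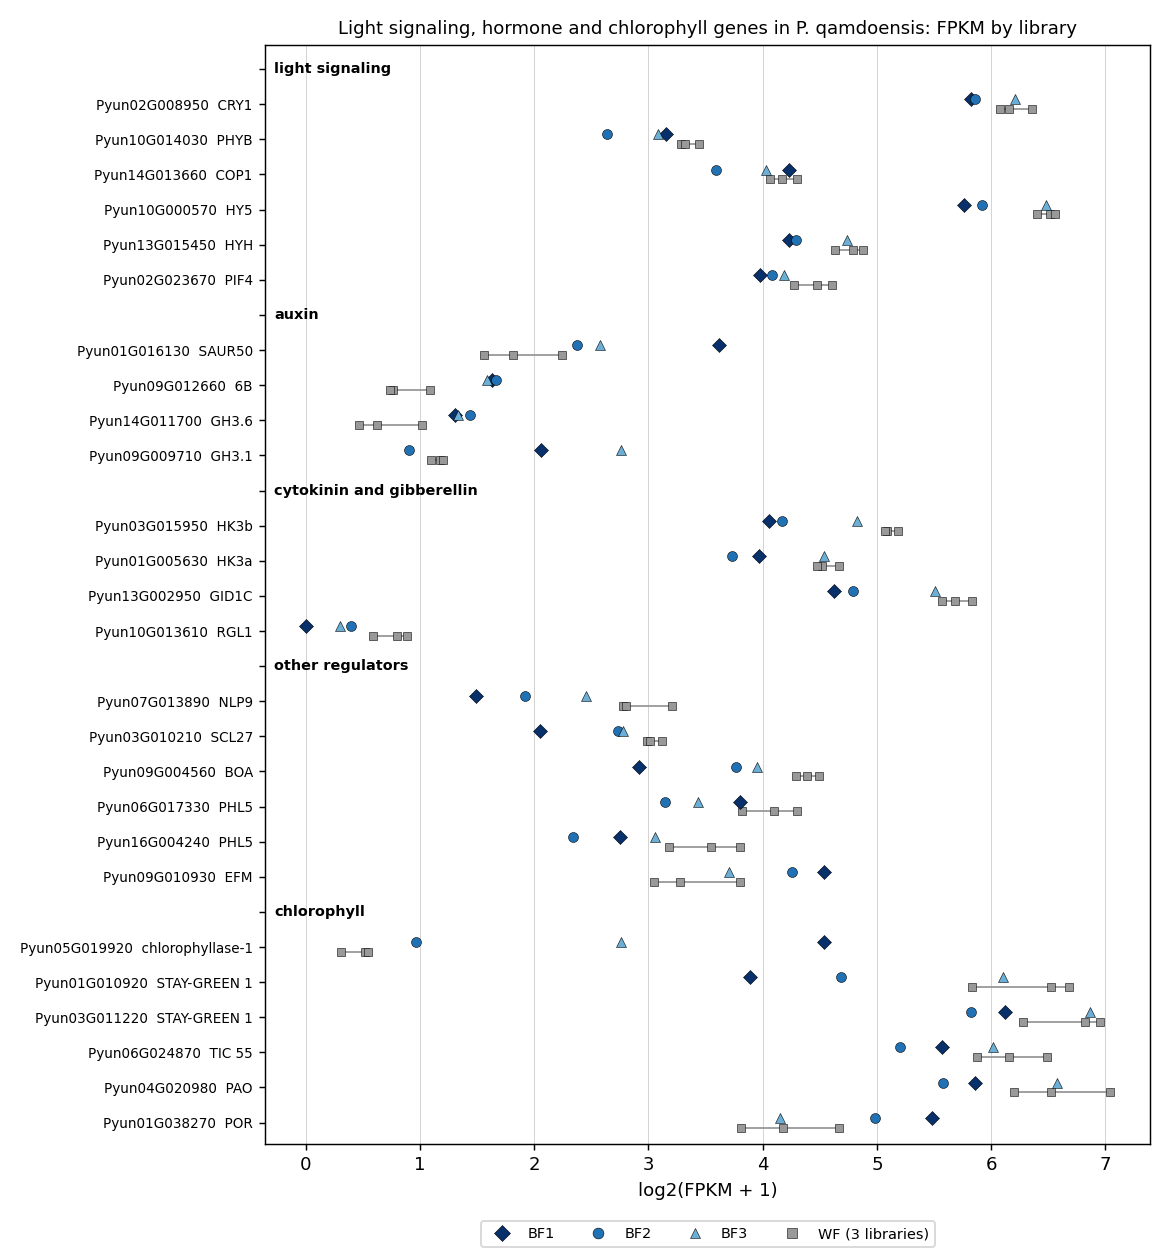
Expression as log2(FPKM + 1) (horizontal axis) of light signaling, hormone and chlorophyll genes in BF1 (diamond), BF2 (circle), BF3 (triangle) and the 3 WF libraries (grey squares, joined by their range). Differences are small for the 6 light signaling genes, and chlorophyllase-1 spreads over 0.952 to 22.3 FPKM within BF.

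Of 6 chlorophyll genes, 1 was higher and 2 were lower with an unadjusted p under 0.05 (8.32% and 8.66% of all genes), and 1 was higher and 0 lower without BF1. Chlorophyllase-1 (Pyun05G019920), which removes the phytol tail of chlorophyll, was at 22.3, 0.952 and 5.75 FPKM in BF1 to BF3 and at 0.239, 0.436 and 0.458 FPKM in WF1 to WF3, a log2 fold change of 2.30 ± 0.73 (limma, adjusted p = 0.207) and of 1.40 ± 0.46 without BF1 (limma, adjusted p = 0.235). STAY-GREEN 1 (Pyun01G010920), which starts chlorophyll breakdown in aging leaves, was at 13.8, 24.7 and 67.8 FPKM under BF and at 55.9, 101 and 91.1 FPKM under WF. A second gene with this annotation, Pyun03G011220, overlapped, at 68.5, 55.6 and 116 FPKM under BF and 76.8, 123 and 112 FPKM under WF. Its log2 fold change was −0.41 ± 0.31 (limma, adjusted p = 0.493). TIC 55 (Pyun06G024870), a chloroplast protein of the same breakdown route, was at 46.6, 35.7 and 63.7 FPKM under BF and at 57.8, 89.0 and 70.4 FPKM under WF. BF3 lay within the WF range for Pyun01G010920 and TIC 55, and without BF1 neither had an unadjusted p under 0.05.

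Gene ontology lists of the study for BF against WF differed in direction. The study drew these lists too from genes it had called on these libraries, so their counts and directions are not independent evidence. Among all genes tested, 8.32% were higher and 8.66% lower with an unadjusted p under 0.05, or 8.47% and 6.59% without BF1. The libraries did not overlap for 9.28% of all genes on the higher side and 10% on the lower side. RNA binding genes were lower in 6 of 9 and higher in 3, and all 9 had an unadjusted p under 0.05 and no overlap, with and without BF1 for the p. All 3 tested genes of RNA modification were lower without overlap, with a median of −0.90, or −0.83 without BF1. DNA binding genes were higher in 15 of 25, 13 of them with an unadjusted p under 0.05, and lower in 10, all with an unadjusted p under 0.05. Without BF1, of 24 tested, 14 were higher and 9 lower with an unadjusted p under 0.05. Zinc ion binding genes were higher in 8 of 12 and mitochondrial genes in 5 of 5, with BF2 medians of −0.22 and −0.08 beside BF1 medians of 1.65 and 2.04. With an unadjusted p under 0.05 there were 6 higher and 4 lower zinc genes and 3 higher mitochondrial genes, and without BF1 3 and 4 zinc genes and 2 mitochondrial genes. For RNA binding, the median difference from WF was below 0 in each BF library, at −0.96, −0.64 and −0.55 in BF1, BF2 and BF3.

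The leaves of *P. schneideri* gave a second, separate comparison of BF with WF in which no library is shared. There limma called 6 of 23821 genes (0.0252%), 4 higher and 2 lower, and 3721 (15.6%) had an unadjusted p under 0.05. In *P. qamdoensis* 4 of these 6 genes had the same direction and 0 had an unadjusted p under 0.05 by limma, with adjusted p-values from 0.335 to 0.793. Leaving out BF1 took Pyun01G015120 from −0.29 to 0.45, the direction of *P. schneideri*. In the other direction, of the 2120 genes higher without overlap in *P. qamdoensis* and tested in both species, 66.7% were higher in *P. schneideri*, against 42.5% of all 22916 genes tested in both. Of the 2351 genes lower without overlap, 76.6% were lower in *P. schneideri*, against 57.5%. Libraries of *P. schneideri* lay apart in the same direction for 21.9% of the higher genes, against 9.27% of all genes, and for 32.5% of the lower genes, against 17.1%. With BF1 left out, the shares of the same direction were 62.2% and 74.1%. These are descriptions over genes, which are not independent replicates.

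Of the 5 starch genes 3 were lower in both species, both AGPase genes and the phosphorylase. Pullulanase was at −0.57 in *P. qamdoensis* and 0.01 in *P. schneideri* (Pyun10G021480), and isoamylase 2 at 0.45 and −0.33 (Pyun02G020430). AGPase Pyun09G011970 was at 8.64, 4.58 and 13.7 FPKM under BF and at 21.7, 23.4 and 40.2 FPKM under WF in *P. schneideri*, and glucan phosphorylase Pyun04G011470 at 41.1, 45.1 and 48.3 FPKM against 71.9, 99.1 and 100.1 FPKM. In both genes the films did not overlap in either species. The species differences, tested in a fit of all 18 libraries, were −0.69 ± 0.73 and −0.33 ± 0.44 (limma, adjusted p = 0.779 and 0.834). Endo-1,3-beta-glucanase Pyun16G005170 was higher under BF in *P. schneideri* too, at 1.22, 5.48 and 1.93 FPKM against 0.20, 0.07 and 0.36 FPKM, from levels far below those of *P. qamdoensis*. Its difference between species was 3.27 ± 0.93 (limma, adjusted p = 0.215). In *P. schneideri* BF2 was the highest of the 3 BF libraries for this gene. Of all 8 endo-1,3-beta-glucanases 6 were higher there, with a median of 0.29. The whole starch and sucrose list had 21 of 34 tested genes higher in *P. schneideri*, with a median of 0.13. With an unadjusted p under 0.05, 6 were higher and 7 lower (5.38% and 10.2% of genes tested in both species). Of the 116 pathway genes 101 were tested there, 48 of them higher, with a median of −0.03.

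The difference between species passed limma's threshold for 2 of 24273 genes (0.00824%), and for 6 without BF1. Pyun06G019200, expressed under WF in *P. qamdoensis* and near 0 in *P. schneideri*, had a species difference of −2.55 ± 0.21 (limma, adjusted p = 5.47e-05). With at most 0.084 FPKM under either film it could not fall in *P. schneideri*, so this value restates the change within *P. qamdoensis*. Pyun04G012190 was higher under BF in *P. qamdoensis* and at 12.5, 13.4 and 11.8 FPKM under BF and 15.3, 13.4 and 13.2 FPKM under WF in *P. schneideri*, a difference of 1.12 ± 0.13 (limma, adjusted p = 0.00498). The level of this gene in WF of *P. qamdoensis* was below that of the other 3 groups. Both PIF3 genes were higher under BF in both species, with a median of 0.34 in *P. qamdoensis* and 1.12 in *P. schneideri*. In *P. schneideri* Pyun14G008760 was at 8.34, 5.94 and 8.03 FPKM under BF and 3.18, 2.69 and 3.02 FPKM under WF. Pyun14G009100 was at 17.1, 11.8 and 10.6 FPKM under BF and 5.73, 5.31 and 4.76 FPKM under WF there. The species difference of Pyun14G009100, −1.02 ± 0.29, did not pass (limma, adjusted p = 0.223).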

How the data were processed

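Illumina reads of leaf RNA were filtered and placed on the genome of *P. yunnanensis* by the authors, who deposited an FPKM value per gene and library. The submitters' processing notes name HISAT2 and StringTie. Their versions, the strand setting and any further scaling are not stated. All columns were matched to a sample by its label. FPKM were used as log2(FPKM + 1), genes averaging 0.5 FPKM or more in a species were kept, and limma 3.58.1 (R 4.3.3) was fitted with 1 mean per film and eBayes with trend. Called genes passed a 1.5-fold change and an adjusted p of 0.01 (Benjamini-Hochberg), as in the study. The species difference used all 18 libraries. The code was tested on simulated data. Tables and plots used Python 3.11.15, pandas 2.3.3 and matplotlib 3.10.9.

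The members and gene lists were chosen with earlier results of these data known. Lists are those of the study's supplement that were complete, and gene names are its own. Named genes are those of its light signaling and pathway annotation lists, the called genes, up to 6 each way that passed an adjusted p of 0.05 without BF1 and whose 3 BF libraries lie outside the WF range, the 2 largest of each pathway list for BF against WF, the 4 most above and 4 most below BF2 and BF3 in BF1, and the called species differences. Not every gene so chosen is printed, and Pyun02G021360 and the gene counts around BF1 were chosen after seeing values. Alternatives were other scalings, pseudocounts, filters, weights and thresholds, the replicate block, GC class and leaving out each library.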

Additional observations from a re-analysis of the deposited data

Results flagged for a closer look

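limma's test of the difference in the change under BF between *P. qamdoensis* and *P. schneideri* passed for 2 genes. Pyun06G019200 had a difference of −2.55 on the log2(FPKM + 1) scale, since it fell by 2.54 in *P. qamdoensis* and was at most 0.084 FPKM under BF or WF in *P. schneideri*. A gene so near 0 cannot fall further, so its difference says nothing on the response of *P. schneideri*. Pyun04G012190 had a difference of 1.12, with a log2 fold change of 0.98 in *P. qamdoensis* and −0.14 in *P. schneideri*. With 3 libraries per group, single libraries were not tested as outliers within a film.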

How the results depend on the processing

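Between BF and WF of *P. qamdoensis*, 1 gene was called. The count was 0 with a pseudocount of 0.1, with a filter of at least 5 FPKM, with a replicate block, with GC class as a term, with the block and GC class together, with library weights, with only the 6 libraries compared and within the GC class above 0.45. It was 768 with a 1.5-fold change and an unadjusted p under 0.01, and it ran from 0 to 180 when single libraries were left out. At an unadjusted p under 0.05 there were 4102 genes, 2439 with library weights, 2462 with only the 6 libraries, 1914 within the GC class, and 2758 to 6705 with single libraries left out. The replicate block gave 3209 genes. Residuals of same-numbered BF and WF libraries correlated at −0.01, −0.33 and −0.30, so the numbers were not taken as pairs. In *P. schneideri* 6 genes were called, 0 without the filter on low FPKM and 1 to 11 with single libraries left out. The species difference was called for 2 genes, for 1 with a pseudocount of 0.1, after quantile normalization or with the replicate block, and for 6 without BF1.

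Of 1756 alternative values for 85 genes, 1556 kept direction and side of an unadjusted p of 0.05, 148 lost it, 37 gained it and 15 changed sign. Pyun04G009420 was at −0.42 with the small pseudocount, −0.39 within the GC class and from −0.63 to 3.03 with single libraries left out. Pyun13G010440 was at −0.46 with the small pseudocount and from −1.09 to 3.34 with single libraries left out. Leaving out libraries gave −4.17 to 0.19 for Pyun03G008080, −2.86 to 1.17 for Pyun19G009420, −0.077 to 0.29 for PIF3 Pyun14G009100, −0.15 to 0.34 for Pyun07G014410 and −0.090 to 0.79 for Pyun15G000920. Populus_yunnanensis_newGene_2173 was at 0.013 within the GC class. Apart from leaving out a library, a smaller pseudocount or the GC class, the cause of these changes was not tested. The fragments behind each FPKM value are unknown, so low values carry no counting error here.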
